A study of Mus musculus with 30 samples.

Results

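HL-1 cells that received FK866, nicotinamide riboside (NR) and Ex527 together (FK+NR+Ex) were compared with untreated HL-1 cells (Ctrl). The libraries were chosen by their labels, 3 for each state, which makes 6 of the 30 libraries in the series and 6 of its 12 from HL-1 cells. The series also holds mouse hearts, which are not analysed here, and HL-1 cells with FK866 alone (FK) or with FK866 and NR (FK+NR), 3 libraries each. HL-1 is a commercial line from an atrial tumour of a female C57BL/6J mouse, and every culture, Ctrl included, came from this 1 line. The study's methods state that all cells were kept in Claycomb medium with serum and norepinephrine, that the compounds were added right after passaging, and that replicates were wells cultured apart. The labels do not state the last of these, so the p-values measure the spread between these libraries, which may be technical.

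NAD+ is the cofactor of redox enzymes and a substrate that sirtuins, PARPs and CD38 consume. Most cells rebuild it from nicotinamide through NAMPT, the enzyme that FK866 blocks, while NR enters below that block through the nicotinamide riboside kinases. SIRT1 is an NAD+-dependent deacetylase of histones and transcription factors, the PER2 protein of the circadian clock among them, and Ex527 inhibits it. The 3 compounds together combine the block of NAMPT, a precursor that enters past it and the inhibition of SIRT1, and the comparison with Ctrl asks how far the transcriptome of that state lies from that of untreated cells.

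The label calls these cells cardiomyocytes, and most defining markers of cardiomyocytes were at or near 0. Of 12 markers, 2 reached 1 FPKM (fragments per kilobase, scaled to library size, a level that can be compared between genes) in any of the 12 HL-1 libraries. The transcription factor gene Gata4 ran from 20.6 to 29.6 FPKM and the atrial light chain gene Myl7 from 0.23 to 1.51 FPKM. Actc1 was at 0 in all 12, and Ttn, Myh6, Actn2, Nkx2-5, Nppa and Ryr2 did not exceed 0.12 FPKM. The collagen genes Col3a1 and Col1a1 stood at 191 to 326 and 69.8 to 114 FPKM. Of genes looked up after the values were seen, Krt19, a keratin, ran from 320 to 525 FPKM, Upk3b, a uroplakin, from 358 to 457 FPKM and Wt1, a zinc finger transcription factor, from 75.1 to 107 FPKM. Msln, the gene of mesothelin, ran from 122 to 190 FPKM. It stood at 126 to 128 in Ctrl and 183 to 190 in FK+NR+Ex, while Krt19, Upk3b and Wt1 stood lower in FK+NR+Ex than in Ctrl. The cells are therefore called by their label, HL-1, in what follows.

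The 6 libraries held 25511707 to 35000109 counts, and 14760 of the 54532 listed genes passed the filter on low counts. A gene was called when its edgeR adjusted p was under 0.01 and its change over 1.5-fold, and "rose" and "fell" are used below for genes under that adjusted p. The comparison with Ctrl called 209 genes (1.42% of those tested), 90 higher (0.61%) and 119 lower (0.806%). The median log2 fold change over all genes was 0.00. At an adjusted p under 0.01 without a fold limit, 294 genes rose (1.99%) and 370 fell (2.51%). The lower side was the steadier one: when each of the 6 libraries was left out in turn, 51 of the 119 lower genes were called in all 6 fits, against 9 of the 90 higher genes. The number of higher genes ran from 14 without the second FK+NR+Ex library to 237 without the first Ctrl library, and that of lower genes from 73 to 143.

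**Figure D1:**
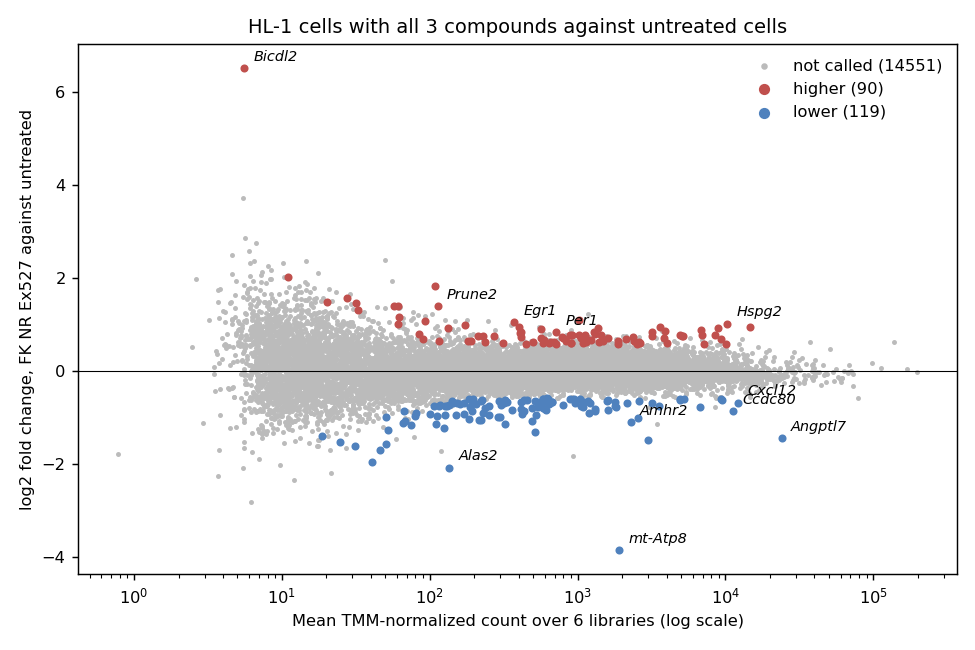
Each point is 1 of the 14760 tested genes, with its mean TMM-normalized count over the 6 libraries on a log axis and its log2 fold change in FK+NR+Ex against Ctrl. The 90 genes called higher are red and the 119 called lower are blue. Angptl7 stands out on the lower side at a high level, and Bicdl2 and mt-Atp8 are the extremes, with the limits given in the text.

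Angptl7 combined a strong reduction with a high level, and Ccdc80, Amhr2 and Selenop, chosen after their values were seen, are shown beside it. Angptl7 (chr4:148495183-148500460 in mm10), which encodes an angiopoietin-like secreted protein, had normalized counts of 34054, 35631 and 35584 in Ctrl and 13008, 15078 and 10876 in FK+NR+Ex. Its groups were far apart, with FK+NR+Ex at 37% of the Ctrl mean (log2 fold change -1.43 ± 0.09 (SE), adjusted p = 1.2e-06). Ccdc80, the gene of a secreted matrix-binding protein, was at 14789, 14994 and 13996 in Ctrl and at 7757, 8733 and 7703 in FK+NR+Ex (log2 fold change -0.86 ± 0.06 (SE), adjusted p = 3.2e-06). Amhr2, the receptor of anti-Müllerian hormone, was at 2958, 3289 and 3115 against 1376, 1649 and 1378 (log2 fold change -1.09 ± 0.07 (SE), adjusted p = 2.1e-06). None of these groups overlapped, which also held for 37.7% of all tested genes and for every called gene. All 3 genes were called whichever of the 6 libraries was left out. Selenop, which carries selenium in plasma, fell from 2909.7, 3726 and 3663 to 1523, 1834 and 1738 (log2 fold change -1.01 ± 0.09 (SE), adjusted p = 3.9e-05). Stra6, a receptor for retinol-binding protein, was at 197, 177 and 152 in Ctrl and 58.7, 82.2 and 82.5 in FK+NR+Ex (log2 fold change -1.23 ± 0.18 (SE), adjusted p = 0.00093). Ramp2, a partner of the adrenomedullin receptor, was at 125, 139.9 and 189 and 54.9, 82.9 and 66.6 (log2 fold change -1.14 ± 0.20 (SE), adjusted p = 0.0026), and it was called in 3 of the 6 fits with a library left out.

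**Figure D2:**
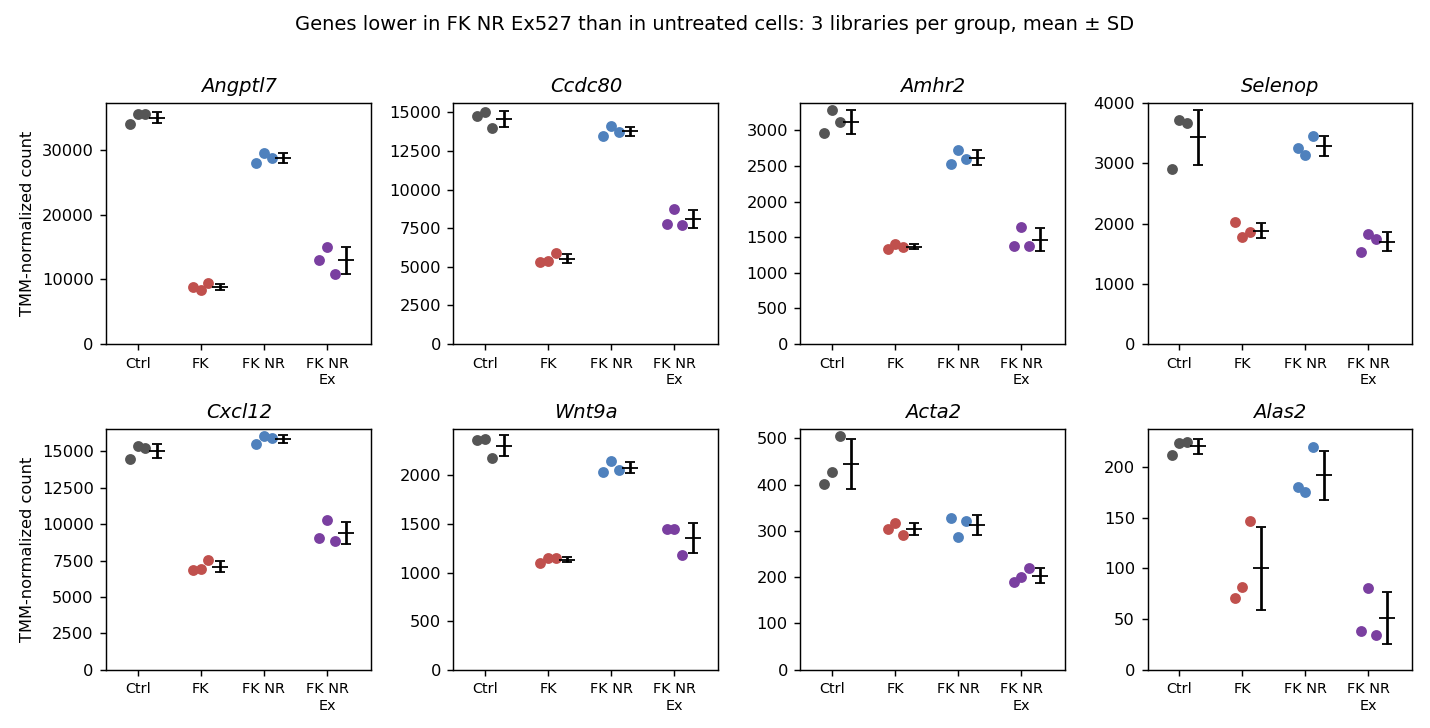
TMM-normalized counts of 8 lowered genes in the 12 HL-1 libraries, with points for libraries and bars for the mean ± SD of 3. In each panel the 3 FK+NR+Ex libraries lie below the 3 Ctrl libraries, and for Angptl7, Ccdc80, Amhr2, Cxcl12 and Wnt9a the FK+NR libraries lie close to Ctrl.

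Among the other lowered genes, Alas2, the erythroid form of the first enzyme of heme synthesis, was reduced most among genes named by size whose counts are not shared with a copy or an overlapping gene. It was at 212, 224 and 225 in Ctrl and at 38.5, 80.7 and 33.8 in FK+NR+Ex, or 23.2% of the Ctrl mean (log2 fold change -2.07 ± 0.28 (SE), adjusted p = 0.00048). Smtnl2, a smoothelin-like gene, fell from 739, 733 and 739 to 315, 358 and 216 (log2 fold change -1.31 ± 0.13 (SE), adjusted p = 6.1e-05). Fut2, a fucosyltransferase gene, was at 62.5, 103 and 61.6 against 26.9, 23.9 and 26.3 (log2 fold change -1.56 ± 0.28 (SE), adjusted p = 0.0032). Hs3st6, a heparan sulfate sulfotransferase gene, was at 85.5, 115 and 109 against 49.1, 50 and 38.5 (log2 fold change -1.16 ± 0.24 (SE), adjusted p = 0.0071). The groups did not overlap for either, which the rule for naming genes required, yet Fut2 was called in 2 and Hs3st6 in 1 of the 6 fits with a library left out. Nrgn, which encodes the calmodulin-binding protein neurogranin, was at 258, 301 and 336 in Ctrl and 136, 166 and 130.4 in FK+NR+Ex (log2 fold change -1.05 ± 0.17 (SE), adjusted p = 0.0018).

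For 2 of the genes with strong reductions, reads can be shared with another gene. mt-Atp8 (MT, bases 7766 to 7969 in mm10) was at 9401, 587 and 737 in Ctrl and 149, 203 and 395 in FK+NR+Ex (log2 fold change -3.85 ± 0.83 (SE), adjusted p = 0.0085). Its first Ctrl library stood far above the others, and without that library the log2 fold change was -1.42 (adjusted p = 0.0097). The gene was called in 3 of the 6 fits with a library left out, and not without any of the FK+NR+Ex libraries, where its adjusted p was 0.043, 0.05 and 0.02. It was called with an offset for gene length, but not by edgeR on the 6 libraries alone (adjusted p = 0.016). With a block for replicate number in edgeR it was not called either (adjusted p = 0.036), and DESeq2 gave no value for it. This gene overlaps mt-Atp6 on the mitochondrial genome, so its reads can be divided between both, and how the counts were made is not given in the sources used here. Rpl17-ps10, listed as a processed pseudogene, was at 4568, 3586 and 5129 in Ctrl and 2154, 1392 and 1197 in FK+NR+Ex (log2 fold change -1.49 ± 0.31 (SE), adjusted p = 0.0073). Rpl17, its near-identical parent gene for a ribosomal protein, ran the other way, from 1996, 2808 and 3601 to 4438, 4955 and 5114. Their sum was 6563, 6394 and 8730 in Ctrl and 6592, 6348 and 6310 in FK+NR+Ex, so the separate values are uncertain, and Rpl17-ps10 was called in 1 of the 6 fits.

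Wnt ligands, secreted signals that act through Frizzled receptors, were read as a whole family after their values had been seen. Of 19 Wnt genes in the file 8 were tested, 5 of these were called lower (0.806% of all genes) and 0 higher. Wnt4 was the most counted, at 5492, 5849 and 6371 in Ctrl and 3973, 3937 and 3747 in FK+NR+Ex (log2 fold change -0.60 ± 0.07 (SE), adjusted p = 0.00019). Wnt9a fell from 2359, 2377 and 2179.8 to 1446, 1444 and 1176 (log2 fold change -0.77 ± 0.08 (SE), adjusted p = 5.3e-05). Wnt5a was at 1499.6, 1366 and 1416 against 902, 922 and 921 (log2 fold change -0.64 ± 0.08 (SE), adjusted p = 0.00028). Wnt11 and Wnt2 completed the group, with log2 fold changes of -0.82 and -0.77, whereas Wnt2b, Wnt5b and Wnt10b, all under 100 normalized counts, did not pass. In FK+NR cells the log2 fold changes against the same Ctrl libraries were -0.36 for Wnt4, -0.15 for Wnt9a, -0.10 for Wnt5a, -0.41 for Wnt11 and 0.05 for Wnt2. In FK cells they lay at -1.04, -1.03, -0.91, -1.31 and -1.14.

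The extracellular matrix genes moved in both directions. Of 28 tested members of a list of 32, 2 were called higher (0.61% of all genes), 4 lower (0.806%) and 22 not, and 6 fell at any fold (2.51%), with a list median of -0.04 (0.11 without the first Ctrl library) beside 0.00 over all genes. Dcn, the small proteoglycan decorin, was at 4135, 4379.7 and 4786 in Ctrl and 2545, 2779 and 2652 in FK+NR+Ex (log2 fold change -0.74 ± 0.07 (SE), adjusted p = 3.9e-05). Col1a2, a chain of type I collagen, fell from 769, 838 and 756 to 483, 501 and 339.5 (log2 fold change -0.83 ± 0.11 (SE), adjusted p = 0.00048). Its partner chain Col1a1 had a log2 fold change of 0.23 with an adjusted p of 0.022 and did not pass. Col6a2 and Col18a1 were called lower with log2 fold changes of -0.62 and -0.64, and Col3a1 and Spp1, the osteopontin gene, fell by less than 1.5-fold (-0.32 and -0.54). Hspg2, which encodes the basement membrane proteoglycan perlecan, was called higher, at 8972, 6309.7 and 5039 in Ctrl and 13618, 15878 and 11828 in FK+NR+Ex (log2 fold change 1.02 ± 0.18 (SE), adjusted p = 0.0031). Lama5, a laminin chain, was the other one called higher (0.72), and neither gene was called when the second or the third Ctrl library or the first or the second FK+NR+Ex library was left out. Without the third FK+NR+Ex library, 2 members were called lower. With that list, summed fibroblast markers (4 of 7 at 1 FPKM or more, Tcf21 at 0 in all 12 libraries), a sum that is mostly Col3a1, Col1a1 and Dcn and so repeats members of the list, ran from 422 to 457 FPKM in Ctrl and from 375 to 387 FPKM in FK+NR+Ex. Summed smooth muscle markers ran from 8.89 to 11.05 and from 4.37 to 4.98 FPKM, nearly all of it Acta2. In bulk RNA, fewer cells of a type and less RNA per cell cannot be told apart, and the part of these markers in the matrix result was not tested.

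Acta2 itself, the smooth muscle actin gene, named here as a marker, was called lower, at 402, 429 and 505 in Ctrl and 191, 200.2 and 220.4 in FK+NR+Ex (log2 fold change -1.13 ± 0.10 (SE), adjusted p = 3.9e-05). In the list of YAP and TGF-beta targets, 4 of 17 tested members rose (1.99% of all genes) and 3 fell (2.51%) at any fold. Of the 17, 1 was called higher (0.61% of all genes). The 4 became 2, 1 and 3 without the first, the second and the third Ctrl library and 1 without each of those of FK+NR+Ex. Ankrd1, a cardiac ankyrin repeat gene and a YAP target, was called higher, at 1701, 1679 and 1968 against 2837, 2658 and 3414 (log2 fold change 0.74 ± 0.09 (SE), adjusted p = 0.00018). The matricellular genes Ctgf and Cyr61 rose by 0.46 and 0.45 on the log2 scale, while the ligand genes Tgfb2 and Tgfb3 had log2 fold changes of -0.37 and -0.56 and fell. Cxcl12, a chemokine gene, was the only member called in a list of 18 NF-kB and inflammatory genes, of which 14 were tested (0.806% of all genes were called lower). It fell from 14442, 15342 and 15223 to 9080.4, 10290.3 and 8841 (log2 fold change -0.67 ± 0.06 (SE), adjusted p = 4.2e-05).

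Some genes of the integrated stress response rose, mostly by less than 1.5-fold. ATF4 is the transcription factor that cells translate under amino acid shortage or protein stress, and its targets supply amino acids and one-carbon units. All 26 members were tested, 2 were called higher (0.61% of all genes) and 0 lower (0.806%), and 8 rose at any fold (1.99% of all genes rose by that rule). The list's median log2 fold change was 0.24, beside 0.00 over all genes. Slc7a1, a transporter of cationic amino acids, was at 6164, 5621 and 5232 in Ctrl and 8005, 8528 and 9175 in FK+NR+Ex (log2 fold change 0.60 ± 0.08 (SE), adjusted p = 0.00045). Slc7a11, the cystine transporter, was at 527, 386 and 375 against 692, 684 and 740 (log2 fold change 0.72 ± 0.14 (SE), adjusted p = 0.005). Slc7a1 was called in 3 and Slc7a11 in 1 of the 6 fits with a library left out, and neither was called without the second Ctrl, the third Ctrl or the third FK+NR+Ex library. Trib3, a pseudokinase that restrains ATF4, rose by 0.53 on the log2 scale, and Chac1, which degrades glutathione, by 0.50. Asns, Shmt2, Mthfd2 and Slc7a5, which serve asparagine, glycine and folate metabolism and leucine uptake, rose by 0.28, 0.30, 0.33 and 0.32. Atf4 itself stood at 8399, 9034 and 9539 in Ctrl and 10298, 10009 and 10682 in FK+NR+Ex and did not pass (log2 fold change 0.20 ± 0.07 (SE), adjusted p = 0.056). The count of 8 became 7, 1 and 4 without the first, the second and the third Ctrl library and 2, 4 and 3 without those of FK+NR+Ex, while the median stayed between 0.22 and 0.25 in these 6 fits.

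**Figure D3:**
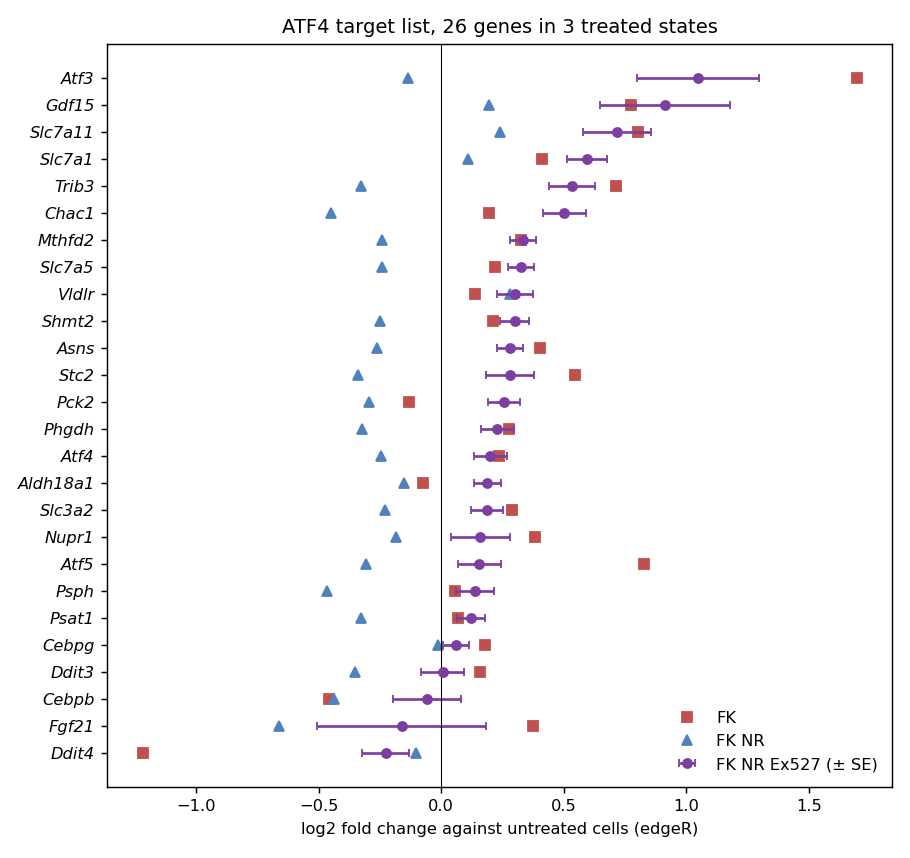
Log2 fold change against Ctrl of the 26 ATF4 list members in FK, FK+NR and FK+NR+Ex cells, with the edgeR standard error for FK+NR+Ex. For most members FK+NR lies left of 0 and FK+NR+Ex right of it, and all 3 states share the Ctrl libraries.

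The same list separated FK+NR+Ex from FK+NR, a comparison that differs only in Ex527. That comparison called 88 genes (0.596%), 31 higher (0.21%) and 57 lower (0.386%), and at any fold 158 genes rose (1.07%) and 168 fell (1.14%). Of the 26 ATF4 targets 16 rose and 0 fell, with 4 called, and the list's median log2 fold change was 0.49, beside -0.00 over all genes. Chac1 was at 319, 369 and 327 in FK+NR and 599.6, 639 and 728 in FK+NR+Ex (log2 fold change 0.95 ± 0.09 (SE), adjusted p = 2.6e-05). Atf4 was at 7267, 7592 and 7897 against 10298, 10009 and 10682 (log2 fold change 0.45 ± 0.07 (SE), adjusted p = 0.0014), and the serine synthesis genes Phgdh, Psat1 and Psph had log2 fold changes of 0.55, 0.45 and 0.60. In FK+NR cells the list's median against Ctrl was -0.25 and in FK cells 0.26. The first FK+NR library stood apart, with 22167 genes above 0 where the other 11 HL-1 libraries had 19488 to 21133, and with the macrophage gene Lyz2 at 7.16 FPKM where the others had at most 0.07. Csf1r, Adgre1 and Ptprc of that marker list also peaked there, at 0.61, 0.06 and 0.04 FPKM. Cd68 and Cd14 did not, at 7.46 and 4.78 FPKM. Endothelial markers peaked there too, at no more than 0.11 FPKM, and what set this library apart was not tested. Without this library, 51 genes were called in this comparison and 10 ATF4 targets rose, with a median of 0.51.

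Part of the hypoxia targets were lower with Ex527. Of 15 members, 5 fell against FK+NR at any fold (1.14% of all genes) and 0 rose, with a median of -0.28, and 2 were called. Pdk1, the kinase that holds back pyruvate dehydrogenase, was at 853, 863 and 867 in FK+NR and 478, 571 and 524 in FK+NR+Ex (log2 fold change -0.71 ± 0.09 (SE), adjusted p = 0.00047), next to 677, 566 and 540.3 in Ctrl. Adm, the gene of the peptide adrenomedullin, was at 29, 28.5 and 24.9 against 6.74, 5.23 and 10.3 (log2 fold change -1.89 ± 0.33 (SE), adjusted p = 0.0039), a low level. Without the first FK+NR library 2 of the 15 fell, and without the first, the second and the third FK+NR+Ex library 1, 2 and 3. Against Ctrl 3 members fell by less than 1.5-fold (2.51% of all genes fell at any fold), the oxygen sensor genes Egln1 (-0.37) and Egln3 (-0.33) and the stress gene Ndrg1 (-0.43). Without the first FK+NR+Ex library 0 did. Bnip3, a mitophagy receptor gene in the FOXO and autophagy lists, fell against both states, with log2 fold changes of -0.43 from Ctrl and -0.74 from FK+NR.

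In the clock, the repressors Per1 and Per2 rose while the activator and output genes mostly did not pass. PER1 and PER2 feed back on the CLOCK and BMAL1 pair, which binds E-boxes, and Dbp is an output gene of that pair. Per1 (chr11:69095217-69109960 in mm10) was at 509.6, 548 and 479 in Ctrl and 820, 954 and 981 in FK+NR+Ex, 179% of the Ctrl mean (log2 fold change 0.84 ± 0.10 (SE), adjusted p = 0.00024). Per2 (chr1:91415982-91459324) was at 672, 568 and 563 against 933, 1090.4 and 920.1 (log2 fold change 0.71 ± 0.10 (SE), adjusted p = 0.00048). Both were called in each fit with a library left out, and they were the 2 called higher of 13 repressors (0.61% of all genes), with a list median of 0.05. Cry2 rose by 0.52, and Cry1 (0.01, adjusted p = 0.96) and Nr1d1 (0.05, adjusted p = 0.84) did not pass. Of the activators, 4 of 7 were tested and 0 passed at any fold, Arntl, the gene of BMAL1, with 0.14 (adjusted p = 0.2) and Clock with 0.43 (adjusted p = 0.038). Dbp was called lower, at 207, 259 and 236 in Ctrl and 150.1, 166 and 136 in FK+NR+Ex (log2 fold change -0.63 ± 0.12 (SE), adjusted p = 0.0035), and was called in 2 of the 6 fits with a library left out. It was the 1 called of 4 tested output factors, where 0.806% of all genes were called lower. Against FK+NR neither Per1 (log2 fold change 0.27, adjusted p = 0.13) nor Per2 (0.10, adjusted p = 0.6) passed, and their log2 fold changes against Ctrl were 0.57 and 0.61 in FK+NR and 0.83 and 0.56 in FK.

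The E-box letters CACGTG, searched as written since they read the same on both strands, were found in the 250 bases before the start of 5 of the 19 clock genes of these lists that have a RefSeq promoter, and of 6.86% of all genes with such an entry (6.02% of the 32851 promoters, since a gene can have several). Per2 has no entry. The stretches of Per1, which rose, and of Cry1 and Tef, which did not pass, are shown so that a gene that moved can be set beside others with the same letters, in capitals (RefSeq, GRCm38.p6, 60 bases each, 5′ to 3′). They are at chr11:69098756-69098815 on the plus strand, chr10:85185082-85185141 on the minus strand and chr15:81802519-81802578 on the plus strand. The Per1 stretch lies inside the gene span given above, before a RefSeq start that is not the first base of that span. Tef has another such stretch, at chr15:81811249-81811308, which is not shown.
Per1: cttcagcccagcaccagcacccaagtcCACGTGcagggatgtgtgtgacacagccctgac
Cry1: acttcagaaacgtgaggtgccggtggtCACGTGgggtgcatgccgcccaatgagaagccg
Tef: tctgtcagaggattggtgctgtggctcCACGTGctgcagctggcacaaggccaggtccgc
The letters are a description of these windows and were not tested for binding.

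Egr1, a zinc finger factor induced within minutes of a stimulus, was the 1 gene called of 18 tested immediate early genes (0.61% of all genes were called higher). Egr1 was at 262, 212 and 256 in Ctrl and 523, 599.7 and 387 in FK+NR+Ex (log2 fold change 1.06 ± 0.16 (SE), adjusted p = 0.001). Myc and Klf4 rose by 0.40 and 0.50, which makes 3 of 18 that rose at any fold (1.99% of all genes), with a list median of 0.29. That count became 2, 1 and 2 without the first, the second and the third Ctrl library and 1, 2 and 1 without those of FK+NR+Ex. The sestrins, stress proteins that inhibit mTORC1, went in opposite directions within the p53 list. Of its 24 tested members 1 was called higher (0.61% of all genes), 1 lower (0.806%) and the other 22 did not pass. Sesn2, a target of ATF4 as well, was at 837, 935 and 819.7 in Ctrl and 1259, 1427 and 1519 in FK+NR+Ex (log2 fold change 0.70 ± 0.08 (SE), adjusted p = 0.00013). Sesn1, a target of FOXO factors as well, was at 3708, 4122 and 3979.6 against 2428, 2510.2 and 2435 (log2 fold change -0.68 ± 0.07 (SE), adjusted p = 7.4e-05). Ccng2, a cyclin gene of the FOXO list, fell with a log2 fold change of -0.59, and was the 1 called of 14 tested (0.806% of all genes were called lower). Rsad2, the antiviral gene viperin, was at 65.7, 62.3 and 57.5 in Ctrl and 93.4, 105 and 126 in FK+NR+Ex (log2 fold change 0.80 ± 0.14 (SE), adjusted p = 0.003). It was the 1 called of 23 tested interferon genes (0.61% of all genes were called higher), and that list's median was -0.00. Rsad2 was called in 2 of the 6 fits, and in FK cells it was at 350, 308 and 351.

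**Figure D4:**
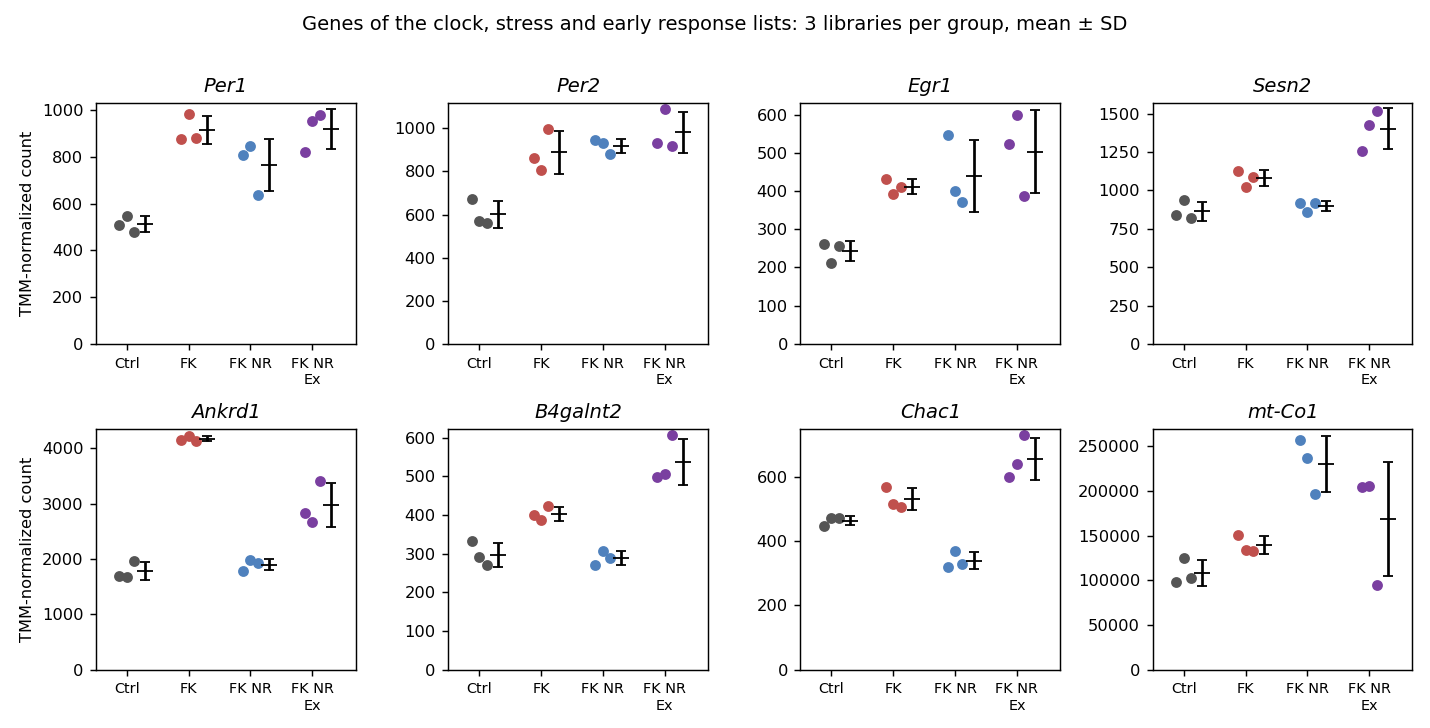
TMM-normalized counts in the 12 HL-1 libraries of 7 genes of the clock, stress and early response groups and of mt-Co1, with points for libraries and bars for the mean ± SD of 3. For the first 7 the 3 FK+NR+Ex libraries lie above the 3 Ctrl libraries, whereas for mt-Co1 the third FK+NR+Ex library lies just below Ctrl.

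Among the genes that make and use NAD+, none was called by edgeR. Of NAD+ synthesis genes 12 of 14 were tested (median -0.12), of NAD+ consumers 17 of 17 (median 0.04) and of sirtuins 7 of 7 (median 0.03). Of these, 1 passed at any fold, Parp4 (0.47, adjusted p = 0.0063), where 1.99% of all genes rose. At an unadjusted p under 0.05 the numbers were 4, 6 and 1, which are not read as a result since the share of all genes under that limit is not given here. DESeq2 called 0, 1 and 0 of them, the 1 being Parp14 (0.69 and adjusted p = 0.015 in edgeR). At any fold 2, 2 and 0 passed in DESeq2, for which the share of all genes is not given here. Nampt was at 4418, 4212 and 4234 in Ctrl and 3442, 3489 and 3831 in FK+NR+Ex, without overlap (as for 37.7% of all tested genes). It did not pass in the main fit (log2 fold change -0.26 ± 0.06 (SE), adjusted p = 0.012). With an offset for gene length, chosen after seeing the data, its edgeR adjusted p was 0.0017 at a log2 fold change of -0.28. Sirt1 was at 611, 590.1 and 581 against 736, 618 and 789 (log2 fold change 0.26 ± 0.10 (SE), adjusted p = 0.074). Nmrk1, a nicotinamide riboside kinase gene, was at 377, 397 and 380.1 against 412, 358 and 443 (log2 fold change 0.07 ± 0.10 (SE), adjusted p = 0.68), and Nmrk2, the muscle form, had 0 counts in all 12 libraries. Per length, over all 12 libraries, Nampt ran from 25.7 to 33.1 FPKM, Cd38 from 36.3 to 71.4, Parp1 from 37.7 to 44.6, Sirt1 from 4.15 to 7.67 and Nmrk1 from 3.65 to 5.35.

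Ldhb, the lactate dehydrogenase chain typical of heart, was the 1 gene called among 21 tested glycolysis genes (0.806% of all genes were called lower). Ldhb was at 908, 1023 and 1065 in Ctrl and 574, 677 and 548 in FK+NR+Ex (log2 fold change -0.73 ± 0.09 (SE), adjusted p = 0.00018). Its log2 fold change was -0.58 after an offset for gene length, just under the 1.5-fold limit. Aldoc, an aldolase gene outside the list and chosen after its values were seen, fell from 721, 665 and 681 to 373, 396 and 312 (log2 fold change -0.93 ± 0.11 (SE), adjusted p = 0.00018). In the lipid lists no gene was called. At any fold (2.51% of all genes fell), 3 of 13 fatty acid synthesis genes fell, the desaturase genes Fads2 (-0.43), Scd1 (-0.35) and Fads1 (-0.30). In cholesterol synthesis 3 of 23 fell (2.51% of all genes), Hmgcs1 (-0.46), Fdft1 (-0.37) and Insig1 (-0.29), and among PPAR targets and fatty acid oxidation genes 3 of 18, Plin2 (-0.52), Acot1 (-0.51) and Acaa2 (-0.41). Without the second or the third Ctrl library, or the first or the second FK+NR+Ex library, 1 cholesterol gene fell in each case, and 1, 1, 0 and 1 of the PPAR list did. With DESeq2 on 12 libraries 2 fatty acid synthesis genes, 1 of the PPAR list and 1 of glycolysis also rose.

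Mitochondrially encoded transcripts hinged on 1 library. The share of counts from the mitochondrial genome was 1.27%, 1.53% and 1.39% in Ctrl and 2.15%, 2.21% and 1.22% in FK+NR+Ex. mt-Co1, a core chain of cytochrome oxidase, was at 98026, 124657 and 102230 in Ctrl and 203970, 205687 and 94736 in FK+NR+Ex, so the first and second FK+NR+Ex libraries were high and the third lay below all of Ctrl (log2 fold change 0.63 ± 0.21 (SE), adjusted p = 0.049). With all libraries 0 of the 13 were called higher. Without the third FK+NR+Ex library 5 were called higher, mt-Co1, mt-Nd5, mt-Nd4, mt-Cytb and mt-Nd6, at log2 fold changes of 0.61 to 0.91. The 47 genes of the respiratory chain encoded in the nucleus had a median of -0.16, and 0 passed in edgeR, with 18 at an unadjusted p under 0.05 and 2 that passed, by less than 1.5-fold, in DESeq2. The 18 have no share over all genes beside them and are not read as a result about this list.

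In the cardiac lists few genes were expressed. Of 26 sarcomere and Z-disc genes 9 were tested, of 38 ion channel and calcium handling genes 13, and of 11 atrial genes 5. Kcnj8, a pore of the ATP-sensitive potassium channel, was at 88.6, 52.3 and 80.1 in Ctrl and 26.9, 29.1 and 35.6 in FK+NR+Ex (log2 fold change -1.26 ± 0.25 (SE), adjusted p = 0.0053). Stard10, a lipid transfer gene of the atrial list, was called lower as well (-0.61), and each of the pair was called in 2 of the 6 fits with a library left out. Each was the 1 gene called in its list, where 0.806% of all genes were called lower, and is not read as a result about that list. Of 10 tested cardiac transcription factor genes, Hand2 and Gata6 fell by less than 1.5-fold (-0.47 and -0.32), where 2.51% of all genes fell at any fold. Tpm1, a tropomyosin, and Atp1b1, a sodium pump subunit, also fell by less than 1.5-fold (-0.23 and -0.40). In the lists for cell division and DNA replication (20 genes each, both medians -0.03), the proteasome (19, median -0.11) and ribosomal proteins (24, median -0.10), 0 passed at any fold in edgeR. At an unadjusted p under 0.05 they held 8, 3, 6 and 1 genes, and DESeq2 called 0. The share of all genes under that unadjusted limit is not given here, so these numbers are not read as a result about the lists. Of the remaining lists, the regulators of mitochondrial biogenesis (Pprc1, 0.43, 11 tested), ER chaperones (Sel1l, 0.34, 16 tested), heat shock genes (Hspb8, -0.27, 14 tested) and integrins (Itgb7, 0.55, 17 tested) each held 1 member that passed. Over all genes 1.99% rose and 2.51% fell at any fold, so 1 member is not read as a result about its list. Autophagy and lysosome genes (21 tested) held the enzymes Gla (-0.49) and Ctsb (-0.32) besides Bnip3, and the lists for LXR, NRF2, AHR, MAPK feedback and adrenergic genes held 0.

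Genes with a long listed length made up much of the higher side. Length here is the one listed with the counts, which can be far shorter than the span on the genome. Prune2, for example, is listed at 20297 bases and spans chr19:16956118-17223932 in mm10. The 90 higher genes had a median length of 8.76 kb and the 119 lower genes of 3.15 kb, beside 3.87 kb over all tested genes, and 42 of the 90 lay in the longest of 10 equal groups of the tested genes by length. Prune2 was at 82.3, 56.8 and 47.3 in Ctrl and 146, 164 and 185 in FK+NR+Ex (log2 fold change 1.41 ± 0.23 (SE), adjusted p = 0.0019). Mdn1, a giant ATPase of ribosome assembly, was at 854, 627 and 477 against 1445, 1497 and 1233 (log2 fold change 1.09 ± 0.19 (SE), adjusted p = 0.0027). Srcap, a chromatin remodeller gene, was at 71.9, 45.1 and 61.6 against 112, 146 and 118 (log2 fold change 1.08 ± 0.24 (SE), adjusted p = 0.0099). Prune2, Mdn1 and Srcap were called in 4, 3 and 1 of the 6 fits. The median log2 fold change was -0.11 in the shortest of these groups, -0.13 in the next and 0.19 in the longest. In that longest group, the median deviations of the Ctrl libraries from the mean of all 12 were 0.00, -0.12 and -0.25, and those of FK+NR+Ex 0.07, 0.10 and 0.05, so the third Ctrl library lay furthest out of these 6. With an offset for gene length in each library, chosen after seeing the data, 47 of the 90 higher genes and 95 of the 119 lower genes were called, and 42 and 37 other genes were called higher and lower. Prune2 (1.10), Mdn1 (0.77) and Hspg2 (0.81) were still called, and Srcap (0.82), Lama5, Slc7a1 and Slc7a11 were not. ATF4 targets that rose at any fold numbered 13 with this offset.

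**Figure D5:**
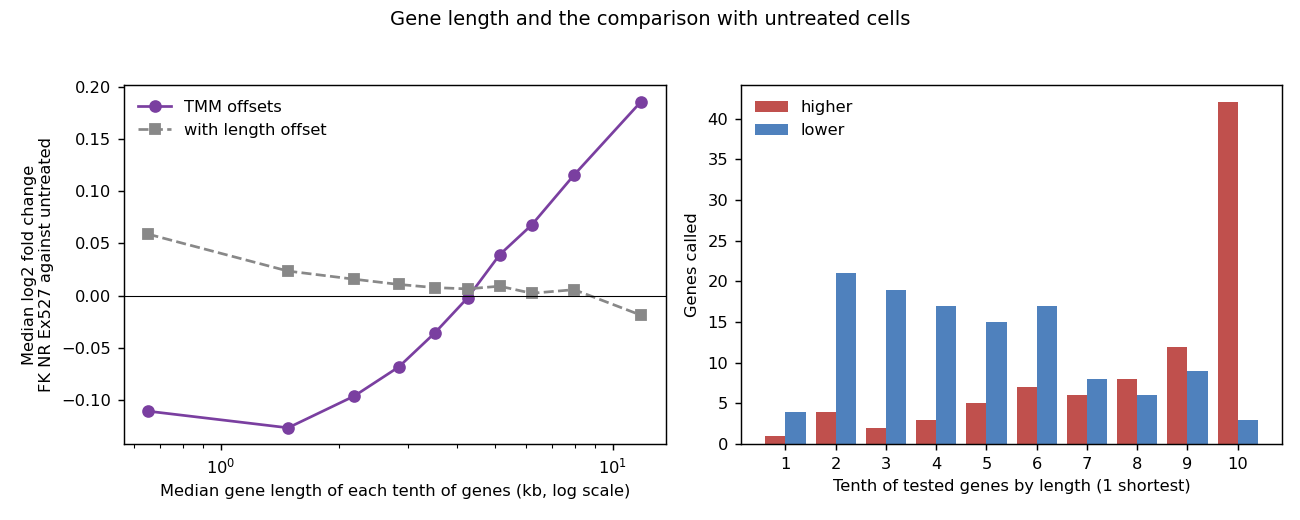
Left, the median log2 fold change of FK+NR+Ex against Ctrl in 10 equal groups of the tested genes by listed length, not genomic span, with and without an offset for length (length on a log axis). Right, the number of genes called higher and lower in each group, where the longest holds 42 of the 90 higher genes and 3 of the 119 lower ones.

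Not all raised genes were long. Those called in all 6 fits with a library left out were Egr1, Per1, Per2, Sesn2, Ankrd1, B4galnt2, Tead4, Fanca and Bicdl2, of which Tead4, Fanca and Bicdl2 are named for this reason alone. All 9 were called with the length offset. B4galnt2, a glycosyltransferase gene, was at 331, 291 and 270.2 in Ctrl and 498, 506 and 606 in FK+NR+Ex (log2 fold change 0.85 ± 0.10 (SE), adjusted p = 0.00015). Tead4, a DNA-binding partner of YAP, was at 239, 197 and 175 against 338, 354 and 341 (log2 fold change 0.76 ± 0.10 (SE), adjusted p = 0.00042). Bicdl2 had 0 counts in the 3 Ctrl libraries and 7, 23 and 10 in FK+NR+Ex, which is at least 3.73-fold higher when each Ctrl library is set at a floor of 3 counts. Cdsn, the skin adhesion gene corneodesmosin, was at 30.2, 38.8 and 24.7 against 65.4, 100.1 and 83.5 (log2 fold change 1.41 ± 0.27 (SE), adjusted p = 0.0051), and Gng3, a G protein subunit gene, at 40.6, 38.8 and 20.5 against 93.4, 97.1 and 73.2 (log2 fold change 1.39 ± 0.27 (SE), adjusted p = 0.0052). Lmtk3, a kinase gene, at 0.99, Dthd1, a death domain gene, at 1.02, and AI506816, a transcript without a described role, at 1.17 completed the higher genes with the largest log2 fold changes. Each of Cdsn, Gng3, Lmtk3, Dthd1 and AI506816 was called in 1 or 2 of the 6 fits.

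In the other treated states, the median of the lowered genes was low with FK866 and nearer to Ctrl with NR. The 119 genes were chosen for their low level in FK+NR+Ex against the same Ctrl libraries, which fixes a low median in FK+NR+Ex. Not every gene followed these medians, and Acta2 and Dcn, given below, had similar means in FK and FK+NR. The median log2 fold change against Ctrl was -0.91 in FK, -0.26 in FK+NR and -0.76 in FK+NR+Ex. Over the 90 higher genes, chosen likewise, it was 0.50, 0.64 and 0.76. Angptl7 had means of 35089.8 in Ctrl, 8857 in FK, 28830.1 in FK+NR and 12987 in FK+NR+Ex. Its level in FK+NR+Ex was lower than in FK+NR (log2 fold change -1.15 ± 0.09 (SE), adjusted p = 2.1e-05) and higher than in FK (log2 fold change 0.55 ± 0.09 (SE), adjusted p = 0.001). The same test against FK+NR called Selenop (-0.95), Amhr2 (-0.83), Cxcl12 (-0.75), Ccdc80 (-0.77) and Wnt2 (-0.82), given as log2 fold changes. It used the FK+NR+Ex libraries by which the genes of this paragraph were chosen, so it is not separate support. Sesn2 (0.64), Ankrd1 (0.64), B4galnt2 (0.89) and Avil (0.70), an actin-binding gene, were called higher.

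Against FK, 188 genes (1.27%) were called, 61 higher (0.413%) and 127 lower (0.86%). Some genes of the comparison with Ctrl were lowest with all 3 compounds. Acta2 had means of 445 in Ctrl, 304 in FK, 312 in FK+NR and 204 in FK+NR+Ex, and FK+NR+Ex lay below FK (log2 fold change -0.58 ± 0.10 (SE), adjusted p = 0.0026) and below FK+NR (log2 fold change -0.62 ± 0.10 (SE), adjusted p = 0.0029). Dcn had means of 4434, 3789, 3826 and 2658 in the same order, and FK+NR+Ex lay below FK (log2 fold change -0.51 ± 0.07 (SE), adjusted p = 0.00028) and FK+NR (log2 fold change -0.53 ± 0.07 (SE), adjusted p = 0.00047) by less than 1.5-fold. Alas2 had means of 99.9 in FK and 192 in FK+NR beside 51 in FK+NR+Ex, and it was called against FK+NR (log2 fold change -1.88 ± 0.29 (SE), adjusted p = 0.0014) but not against FK (log2 fold change -0.95 ± 0.30 (SE), adjusted p = 0.052).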

How the data were processed

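RNA of HL-1 cells was sequenced in 12 libraries, 3 for each of 4 states. The authors deposited raw read counts for each gene, as whole numbers, beside FPKM values. Per the labels, the submitters' notes name HISAT2, HISAT and TopHat2 and the build mm10. The counting tool, its annotation and its strand setting are not given in the sources used here, so overlapping and antisense genes cannot be separated. FPKM was used only to give levels per length.

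Counts were fitted with the quasi-likelihood test of edgeR 4.0.16 (limma 3.58.1, R 4.3.3) on all 12 libraries with TMM normalization, 1 mean per state and filterByExpr. P-values are two-sided and adjusted over all 14760 tested genes by Benjamini-Hochberg. Genes under an adjusted p of 0.01 and over 1.5-fold were called. Normalized counts are TMM-scaled to the mean library. SE is the log2 fold change divided by the root of F. Scripts were tested on simulated data.

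Genes were named by these rules: the 10 largest changes in each direction among called genes with a mean of at least 50 normalized counts over the 6 libraries, no overlap and no Gm or Rik name; every called member of 39 lists, and in lists with few calls those nearest the thresholds; Nampt, Sirt1, Nmrk1 and Nmrk2; and, among genes called against Ctrl with the same level and overlap rules, the 5 largest differences in each direction from FK+NR. Any gene outside these rules was chosen after its values were seen, and is given as such or as one of a family or list. The comparisons and lists were chosen with earlier results of these data known. DESeq2 1.42.0 was an alternative. Library totals over the 12 ran from 21337922 to 35000109. Within a state, libraries differed by more than sampling noise (chi-square per gene 4.06 to 25.6), so none was counted as a duplicate. Heart tables were not used here.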

Additional observations from a re-analysis of the deposited data

How the results depend on the processing

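The sign of the 44 named genes (43 with DESeq2) was the same in each alternative, except that Nmrk1, which did not pass in any, ran from -0.013 to 0.15 when 1 library was left out, with the negative value without the third FK+NR+Ex library. Leaving out 1 library took 3 to 18 of the named genes past the threshold to the other side, the length offset 7 and the replicate block 6. Of the 209 genes called against Ctrl, counts ran from 93 to 380 when 1 library was left out (14 to 237 higher, 73 to 143 lower), and were 375 (227 higher) without a filter on low counts and 664 (294 higher, 370 lower) without a fold limit. DESeq2 called 137 higher genes on all 12 libraries and 146 on 6. Against FK+NR, 88 became 133 with DESeq2 on 12 libraries, 488 without the filter, 326 without the fold limit, 52 to 92 with 1 Ctrl or FK+NR+Ex library left out and 51 without the first FK+NR library, the last chosen after seeing the data. Against FK, 188 became 701 without the fold limit and 112 to 204 with 1 library left out. With a replicate block the comparison with Ctrl called 149 genes, 54 of them higher. The correlations of same-numbered Ctrl and FK+NR+Ex libraries were 0.01, 0.20 and 0.18, and those of differently numbered ones ran from -0.19 to 0.07. No pairing was assumed in the main fit, since the labels state none, and these values do not settle it. With the offset for gene length, chosen after seeing the data, 221 genes were called. The cause of these moves was not tested. A fit with a library left out also has fewer samples. Of the called genes, 84 of 90 higher and 114 of 119 lower had a mean of at least 50 normalized counts. The calls therefore describe few genes below that level. The share of all tested genes at that level is not given here, so these numbers are not read as a result about depth.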

Other observations

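The genes given here lie outside the lists and were chosen after their values were seen. Prdx5, Ddah2, Gucy1a1, Gsta3 and Aox3 were called lower in each fit with a library left out, while of 16 NRF2 and NADPH supply genes 0 passed, with a median of 0.07. Prdx5, a peroxiredoxin, was at 8196, 8023 and 9014 in Ctrl and 5343, 4811 and 4668 in FK+NR+Ex (log2 fold change -0.77 ± 0.08 (SE), adjusted p = 7.4e-05). Ddah2, which clears an inhibitor of nitric oxide synthase, and Gucy1a1, a chain of the nitric oxide receptor, had log2 fold changes of -0.63 and -0.61, and Ddah2 was not called with the length offset (-0.49). Gsta3 and Aox3, a glutathione transferase and an aldehyde oxidase gene, stood at -0.65 and -0.65.

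Hey1, a Notch target gene, was at 1339, 1341 and 1316 in Ctrl and 782, 793 and 792 in FK+NR+Ex (log2 fold change -0.76 ± 0.07 (SE), adjusted p = 3.9e-05), with FK+NR at 980.2, 1034 and 972. Ddc, which makes dopamine and serotonin from their precursors, was at 2021, 2069 and 2103 against 1198, 1177 and 1104 (log2 fold change -0.83 ± 0.06 (SE), adjusted p = 3.2e-06). Trib2, a pseudokinase related to Trib3, was called lower (-0.86), whereas Trib3 rose (0.53). Gas1, a growth arrest gene and Hedgehog co-receptor, was at 10398, 10912 and 12843 against 7087, 7298 and 7908 (log2 fold change -0.62 ± 0.08 (SE), adjusted p = 0.00037), and was not called with the length offset.

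Against FK+NR, the complement gene C3 was called lower, with means of 157 in FK+NR and 71.3 in FK+NR+Ex (log2 fold change -1.12 ± 0.20 (SE), adjusted p = 0.0041). Against Ctrl its log2 fold change was -0.72 (adjusted p = 0.028). Fbln5, an elastic fibre gene, was called higher against FK+NR (log2 fold change 0.85 ± 0.17 (SE), adjusted p = 0.0091), and its log2 fold change against Ctrl was 0.75 (adjusted p = 0.011).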
